A study of Mus musculus with 9 samples.

Results

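Collagen chains are the polypeptides from which the collagens of the extracellular matrix are built. They were taken here as every gene annotated as protein-coding in the RNA-seq table of mouse embryonic fibroblasts (MEFs) whose symbol has the form Col, a type number, the letter a and a chain number. The rule found 43 genes of 19769 in the table, of which 15118 are protein-coding. No measured value entered the rule. By textbook class, 11 genes encode chains of the fibrillar collagens (types I, II, III, V, XI, XXIV and XXVII), 8 encode chains found in basement membranes (types IV, XV and XVIII) and 24 encode chains of other types.

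Each collagen molecule is a helix of chains wound around one another, and the helix needs a glycine at the start of every Gly-X-Y repeat. Fibrillar collagens have a long uninterrupted helix and pack side by side into the fibrils that give tissues tensile strength. Type IV chains have a helix broken by short interruptions and assemble into the meshwork of basement membranes. Other types decorate fibrils (the FACIT group), form beaded filaments (type VI), hexagonal networks (types VIII and X) or anchoring fibrils (type VII), or span the cell membrane. Fibroblasts are the main source of type I collagen in connective tissue.

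The RNA came from primary MEFs homozygous for Myc-Egfp, an allele that fuses green fluorescent protein to MYC, and the cells of both groups carry it. Cells of both groups received the proteasome inhibitor MG-132 at 20 µM for 6 h, were sorted by fluorescence into a low-MYC and a high-MYC group, and were left overnight before lysis. Each group has 2 libraries, which are technical replicates, so the p-values below measure the spread between libraries and not between cultures. Further data concern positions in the genome: a list of FUBP1 binding regions from ChIP-seq of 1 MEF sample, and TACh-seq, a method that finds chromatin open to a nuclease, of WT and KOKD MEFs (Fubp1 knockout with Fubp2 knockdown). The TACh-seq table does not say which of its 4 samples a read came from, so the genotypes are not compared.

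The structure of the genes differs between the classes before any expression value is considered. In the annotated coding transcripts (GENCODE M21, 1 transcript per gene), 305 of the 649 coding exons of the 11 fibrillar genes are 54 bp long (47.0%), which is the length of 6 Gly-X-Y repeats. The same length was found in 16 of 377 coding exons of the basement membrane genes (4.24%), in 145 of 939 of the other types (15.4%) and in 756 of 162939 coding exons of the remaining protein-coding genes (0.464%). Single genes of the FACIT group lay within the range of the fibrillar genes (41.2% to 55.0%): Col22a1 at 44.4%, and Col9a2 and Col9a3 at 43.75% each. The exons below show the repeat in the most abundant fibrillar chains, in the most abundant type VI chain and in the type IV pair. Those of the fibrillar and type VI chains are 54 bp long, as are 3 of the 35 coding exons of Col6a1. Those of type IV are 84 and 111 bp long, although Col4a1 has 2 exons of 54 bp and Col4a2 has 1. The spacing of glycine codons in them thus depends on the exons chosen. All are read from the transcripts on mm10, 5′ to 3′ on the coding strand, with glycine codons in capitals.
Col1a1 coding exon 8 (chr11:94939904-94939957, plus strand): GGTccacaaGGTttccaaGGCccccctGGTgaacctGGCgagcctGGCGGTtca
Col1a2 coding exon 8 (chr6:4515481-4515534, plus strand): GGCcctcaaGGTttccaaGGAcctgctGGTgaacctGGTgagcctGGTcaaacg
Col3a1 coding exon 6 (chr1:45325360-45325413, plus strand): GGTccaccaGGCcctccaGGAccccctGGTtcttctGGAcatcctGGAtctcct
Col5a2 coding exon 6 (chr1:45434892-45434945, minus strand): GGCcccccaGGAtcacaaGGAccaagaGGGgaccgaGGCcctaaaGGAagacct
Col6a1 coding exon 9 (chr10:76719623-76719676, minus strand): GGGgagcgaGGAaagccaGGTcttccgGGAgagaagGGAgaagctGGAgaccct
Col4a1 coding exon 9 (chr8:11244486-11244569, minus strand): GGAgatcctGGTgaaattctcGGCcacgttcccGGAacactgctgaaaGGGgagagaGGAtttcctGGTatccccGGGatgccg
Col4a2 coding exon 18 (chr8:11415364-11415474, plus strand): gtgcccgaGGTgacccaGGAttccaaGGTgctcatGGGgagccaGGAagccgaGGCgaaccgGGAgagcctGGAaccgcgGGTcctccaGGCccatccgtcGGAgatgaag
In the exons of Col1a2, Col3a1, Col5a2 and Col6a1 all 5 steps from one glycine codon to the next are 9 bases. The Col1a1 exon has the same 5 steps of 9 bases and 1 further glycine codon directly after the last of them. The Col4a1 exon has 4 steps of 9 bases and 3 longer ones of 12, 12 and 15 bases, and the Col4a2 exon has 9 steps of 9 bases and 1 of 12.

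Over whole coding sequences, the longest unbroken run of glycine-led triplets was 216 to 344 triplets in the fibrillar genes (median 338). It was 30 to 66 in the basement membrane genes and 23 to 113 in the other types. The shortest fibrillar runs belonged to Col24a1 (216) and Col27a1 (217), which are also the fibrillar genes with the largest share of 54-bp exons, 55.0% and 54.1%. Col10a1, Col8a1 and Col8a2, the short-chain network collagens, had 2 coding exons each and none of 54 bp.

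**Figure D1:**
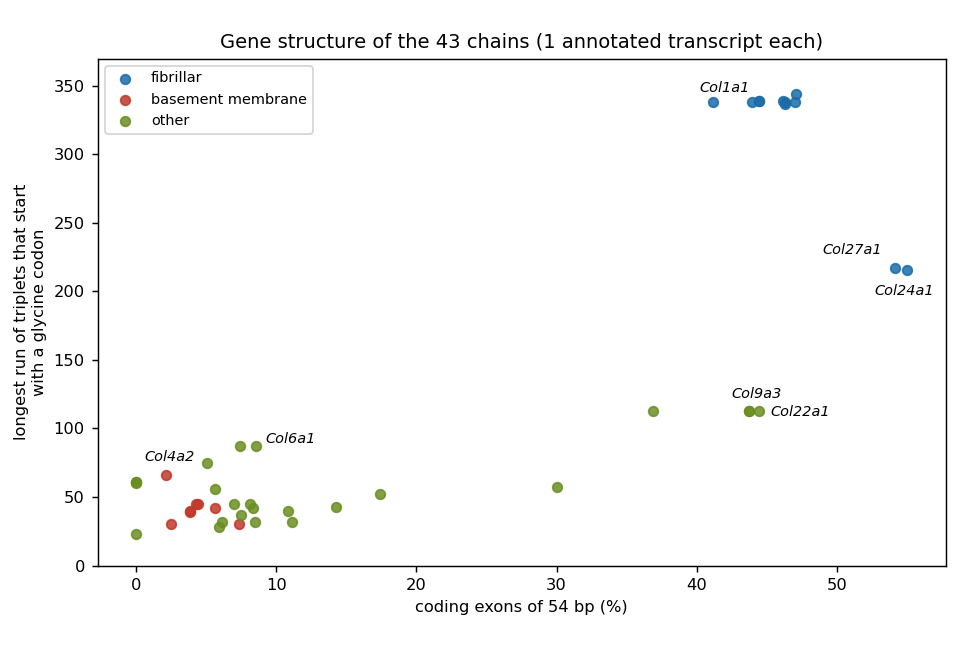
Share of coding exons that are 54 bp long (x axis, %) against the longest unbroken run of glycine-led triplets (y axis, triplets) for each of the 43 genes, coloured by class. The 11 fibrillar genes lie between 41.2% and 55.0% with runs of at least 216 triplets, and no gene of the other 2 classes has a run above 113. Col22a1, Col9a2 and Col9a3 lie in the same range of exon share.

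Expression was read as normalized FPK, fragments per kilobase of transcript scaled by spike-in RNA. The spike-in RNA was added in proportion to cell number, so a value is a level per cell, and because it is per length it can be compared between genes. Reads per gene are not part of these values, so no counting interval is given. Among genes with very low values the commonest ratio to low-MYC replicate 1 estimates what a single read is worth. It was 1.00, 2.24 and 2.54 in low-MYC replicate 2 and high-MYC replicates 1 and 2, and the implied numbers of reads were 1.04, 0.990 and 0.927 times that of low-MYC replicate 1.

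The chains covered a wide range of levels. The mean over the 4 libraries was at least 10 normalized FPK for 4 chains, from 1 to 10 for 11, from 0.1 to 1 for 6, from 0.01 to 0.1 for 5 and below 0.01 for 17. The 21 chains with a mean of at least 0.1 were tested: 8 of 11 fibrillar, 4 of 8 basement membrane and 9 of 24 of the other types. Technical replicates of a tested chain differed with a coefficient of variation of 0.0531% to 9.84% in low-MYC cells (median 2.30%) and of 0.355% to 5.37% in high-MYC cells (median 1.62%).

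Col1a1 and Col1a2, which together make type I collagen, led the order in every library. In low-MYC cells they were followed by Col4a1, Col2a1, Col5a2, Col6a1, Col12a1, Col4a2 and Col3a1. The replicates of neighbouring chains overlapped in 3 of 20 steps of this order, Col5a2 with Col6a1, Col4a2 with Col3a1 and Col11a1 with Col7a1. In high-MYC cells Col6a1 followed type I directly and Col3a1 had moved up beside Col4a1. There the replicates overlapped in 2 of 20 steps, Col4a1 with Col3a1 and Col2a1 with Col12a1. Among all 19769 genes Col1a1 ranked 164 when MYC was low and 130 when it was high. Col3a1 went from rank 1413 to 895 and Col10a1 from 5052 to 3010, whereas Col4a1 went from 719 to 869.

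**Figure D2:**
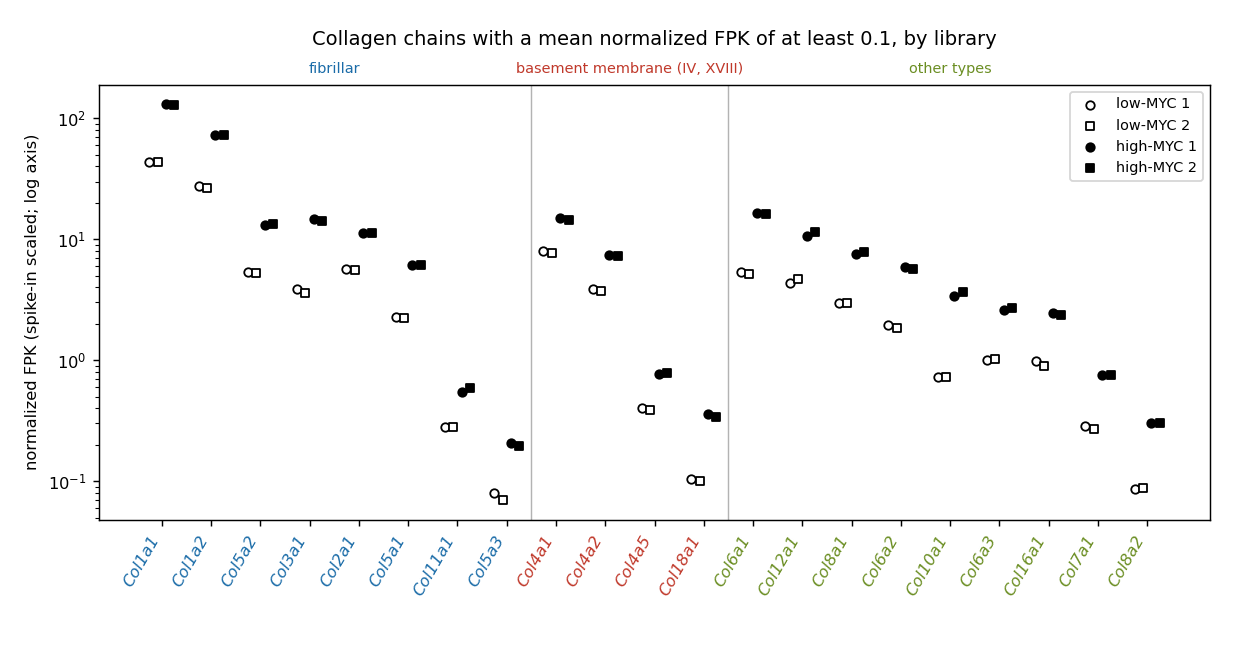
Normalized FPK per cell (y axis, log scale) of the 21 collagen chains with a mean of at least 0.1 in the 4 libraries, open symbols for low-MYC and filled symbols for high-MYC replicates, grouped by class. In every chain both high-MYC libraries lie above both low-MYC libraries, from 43.3 and 43.7 to 129 and 131 in Col1a1 at the top.

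Whether collagen mRNA differs between cells with a low and a high MYC setpoint was asked on 2 scales. Per cell, all 21 tested chains rose in high-MYC cells at an adjusted p under 0.01 (limma on log2(normalized FPK + 0.1), Benjamini-Hochberg over 11870 genes). This was also the case for 97.1% of all tested genes, so the count does not set the chains apart. In bulk RNA, fewer cells of a type and less RNA per cell cannot be told apart. No chain fell, against 0.0253% of all genes. At least 2-fold rises were found for 15 of the 21 chains, against 55.1% of all genes. That comparison depended on the settings, since the added 0.1 shrinks the fold changes of genes of low level. Col5a3, for example, had a ratio of group means of 2.70 but a log2 fold change of 0.79. At a pseudocount of 0.01 it was 16 of the 21 chains, against 10076 of 11870 genes. With only genes of a mean of at least 1 it was 12 of 15 chains, against 4779 of 5608 genes. In both of these settings the share of the chains was the smaller one. The median log2 fold change per cell, with the same 0.1 added, was 1.28 over the chains and 1.03 over all tested genes. By class it was 1.35 for fibrillar, 0.91 for basement membrane and 1.30 for other chains. Adjusted p-values of the chains lay between 1.04e-05 and 6.65e-05 (limma). Myc itself, on whose product the cells were sorted, was at 9.81 and 9.86 in the low-MYC and 20.3 and 20.5 in the high-MYC libraries, a log2 fold change per cell of 1.04 ± 0.039 (SE).

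Because nearly every mRNA was higher per cell, each library was also rescaled to the same median over the tested genes. On this second scale a fold change says how a chain moved against the median gene. Of the 21 chains 16 lay above 0 and 5 below, whereas 48.5% of all tested genes lay above 0. One chain, Col10a1, rose at an adjusted p under 0.01 (1.76% of all genes did), and no chain fell (0.531% did). At an adjusted p under 0.05 the count was 10 higher, against 7.82% of all genes, and 0 lower, against 5.07%. Without adjustment, 14 chains were higher at p under 0.05 in limma, against 17.3% of all genes, and 5 were lower, against 15.8%. The median relative log2 fold change was 0.20 over the chains and -0.0039 over all genes, with 0.19 for fibrillar, -0.20 for basement membrane and 0.22 for other chains. The call for Col10a1 was lost with the replicate number as a block (adjusted p = 0.0154, limma), where 0 of 11870 genes passed. With any single library left out, its relative log2 fold change stayed between 1.01 and 1.05. Calls on this scale are not given for those fits, which leave 1 library in a group. In those fits the lone library of a group is assumed to vary like the other group. With only the 5608 genes of a mean of at least 1 in the fit, 6 of 15 chains (Col1a1, Col3a1, Col5a1, Col6a1, Col6a2 and Col10a1) were higher at an adjusted p under 0.01 (limma), against 5.67% of the genes in that fit, and 1 (Col4a1) was lower, against 3.80%.

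Among the fibrillar chains, type I collagen was the most abundant. Col1a1 (chr11:94936224-94953042) was at 43.7 and 43.3 normalized FPK in the low-MYC libraries and at 131 and 129 in the high-MYC libraries. Its log2 fold change was 1.57 ± 0.042 (SE) per cell and 0.39 ± 0.050 relative to the median gene, with an adjusted p of 0.0224 for the second (limma). The 2 high-MYC libraries lay far above the low-MYC pair, and replicates were close together. Col1a2 (chr6:4504814-4541544), the partner of Col1a1 in the type I molecule, was at 27.4 and 26.7 in low-MYC and 72.9 and 72.2 in high-MYC cells. Its relative log2 fold change of 0.25 ± 0.051 did not pass either threshold (adjusted p = 0.055, limma).

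Type III collagen, whose only chain Col3a1 (chr1:45311538-45349706) forms fibrils with type I in elastic tissues, had the largest fold change of the tested fibrillar chains. It was at 3.88 and 3.59 in low-MYC and at 14.6 and 14.1 in high-MYC cells, so the groups did not overlap. The log2 fold change was 1.92 ± 0.054 per cell and 0.76 ± 0.075 relative to the median gene, with an adjusted p of 0.0137 (limma). On the relative scale 98.8% of all tested genes had a smaller change than Col3a1.

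Type V chains, which join type I fibrils and limit their diameter, were lower in level than the type I chains. Col5a2 was at 5.37 and 5.27 in low-MYC and 13.1 and 13.3 in high-MYC cells. Col5a1 was at 2.27 and 2.22 against 6.11 and 6.18. In both chains the groups did not overlap, and the relative log2 fold change was 0.13 ± 0.042 for Col5a2 (adjusted p = 0.123, limma) and 0.27 ± 0.043 for Col5a1 (adjusted p = 0.0362, limma). Col5a3, the least abundant tested chain, was at 0.0799 and 0.0695 in low-MYC and 0.207 and 0.196 in high-MYC cells, with a relative log2 fold change of 0.14 ± 0.067.

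Col2a1 and Col11a1, best known from cartilage fibrils, were the tested fibrillar chains below 0 on the relative scale. Col2a1 (chr15:97975602-98004695) was at 5.65 and 5.55 in low-MYC cells and 11.2 in both high-MYC libraries, a rise per cell with a log2 fold change of 0.99 ± 0.039. Relative to the median gene it was -0.18 ± 0.043 (adjusted p = 0.0739, limma). Col11a1 was at 0.278 in both low-MYC libraries and 0.545 and 0.584 in the high-MYC libraries, with a relative log2 fold change of -0.13 ± 0.031 (adjusted p = 0.0758, limma). Neither passed a threshold on the relative scale. Of 7 cartilage markers, 5 are in the table and 1, the transcription factor gene Sox9, was abundant enough to be tested. Sox9 was at 1.01 and 0.924 in low-MYC and 2.39 and 2.49 in high-MYC cells, while Acan, the gene of the main cartilage proteoglycan, had a mean of 0.0154.

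In the basement membrane class, the tested type IV chains had smaller fold changes than the median gene, and whether they passed a threshold on that scale depended on the fit. Col4a1 (chr8:11198423-11312826) was at 8.03 and 7.66 normalized FPK in low-MYC and 14.9 and 14.5 in high-MYC cells. Col4a2 (chr8:11312805-11449287), with which Col4a1 forms the common type IV molecule, was at 3.90 and 3.73 against 7.36 and 7.29. Col4a5, a chain of the basement membrane of the kidney filter among others, was at 0.402 and 0.386 against 0.772 and 0.781. All 3 were higher in both high-MYC libraries, and per cell their log2 fold changes were 0.90 ± 0.045, 0.92 ± 0.044 and 0.83 ± 0.051. None of the 3 reached 2-fold. Relative to the median gene the values were -0.27 ± 0.060, -0.23 ± 0.054 and -0.17 ± 0.045, with adjusted p-values of 0.0645, 0.068 and 0.085 (limma), which passed neither threshold. Col4a1 and Col4a2 passed that of 0.05 with the replicate number as a block (0.0289 and 0.0310, limma) and after rescaling to the same upper quartile (0.0403 and 0.0428), and Col4a1 passed that of 0.01 with only genes of a mean of at least 1 in the fit (0.0076). On the relative scale 3.66% of all tested genes had a lower change than Col4a1, 4.8% than Col4a2 and 8.77% than Col4a5.

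Col18a1 (chr10:77052178-77166548), whose C-terminal fragment is endostatin, was the tested basement membrane chain outside type IV and lay on the other side of the median gene. It was at 0.103 and 0.10 in low-MYC and 0.357 and 0.338 in high-MYC cells. The relative log2 fold change was 0.39 ± 0.056 (adjusted p = 0.0298, limma). Without Col18a1, the type IV chains alone had a median relative log2 fold change of -0.23. Slc19a1, which overlaps Col18a1 on the opposite strand, was at 0.244 and 0.245 in low-MYC and 0.534 and 0.511 in high-MYC cells.

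The other types were led by type VI collagen, which forms beaded filaments around many cells. Col6a1 (chr10:76708792-76726168) was at 5.39 and 5.16 in low-MYC and 16.4 and 16.2 in high-MYC cells. Col6a2, its neighbour on the same strand 85161 bp away, was at 1.96 and 1.84 against 5.86 and 5.65. Col6a3, on another chromosome, was at 1.01 and 1.03 against 2.59 and 2.71. Both high-MYC libraries were higher in each. Their relative log2 fold changes were 0.44 ± 0.056, 0.41 ± 0.069 and 0.19 ± 0.027, with adjusted p-values of 0.0229, 0.0395 and 0.0291 (limma).

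Of the network-forming short chains, Col10a1 changed the most of all 21 tested chains. Type X collagen is the product of hypertrophic chondrocytes. Col10a1 (chr10:34389981-34397085) was at 0.732 and 0.726 in low-MYC and 3.39 and 3.66 in high-MYC cells. Its log2 fold change was 2.13 ± 0.054 per cell and 1.03 ± 0.031 relative to the median gene (adjusted p = 0.00181, limma), and 99.4% of all tested genes had a smaller relative change. The gene lies within Nt5dc1 on the opposite strand, and Nt5dc1 was at 0.0345 and 0.0349 in low-MYC and 0.0712 and 0.0791 in high-MYC cells. The library kit is stranded, but whether the quantification used strand is not given in the sources used here.

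The type VIII chains, which form the hexagonal lattice under the corneal endothelium and are made by vascular cells, differed in level. Col8a1 was at 2.95 and 2.97 in low-MYC and 7.58 and 7.87 in high-MYC cells. Col8a2 was at 0.0855 and 0.0875 against 0.305 and 0.301. The groups did not overlap in either chain. The relative log2 fold change was 0.20 ± 0.029 for Col8a1 (adjusted p = 0.0301, limma) and 0.39 ± 0.044 for Col8a2 (adjusted p = 0.018, limma).

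Of the chains that decorate fibrils or anchor epithelia, Col12a1 was at 4.37 and 4.70 in low-MYC and 10.7 and 11.5 in high-MYC cells. Col16a1 was at 0.982 and 0.890 against 2.46 and 2.35. Col7a1, the anchoring fibril chain, had a mean of 0.514. Relative to the median gene these 3 chains were at 0.11 ± 0.036, 0.17 ± 0.081 and 0.22 ± 0.053, and their adjusted p-values of 0.116, 0.226 and 0.0728 (limma) passed neither threshold.

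**Figure D3:**
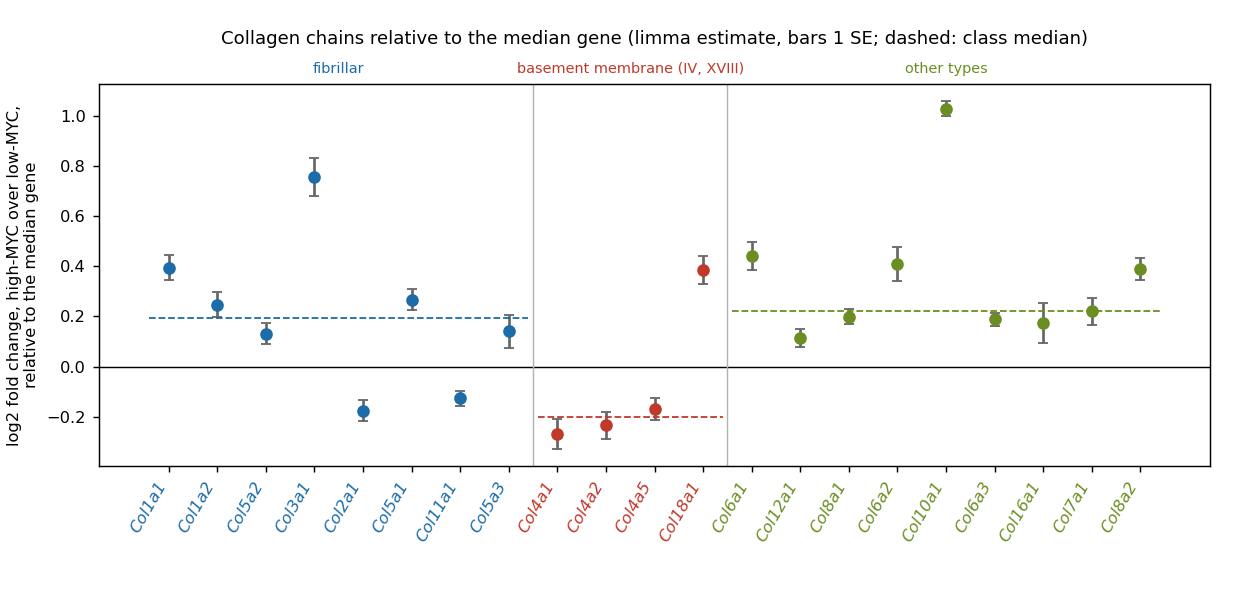
Log2 fold change of high-MYC over low-MYC relative to the median gene (y axis) for the 21 tested chains, as limma estimates with bars of 1 SE, and the median of each class as a dashed line. The 3 type IV chains lie between -0.27 and -0.17 and all 9 chains of the other types lie above 0, up to 1.03 in Col10a1.

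The composition of the collagen mRNA pool followed from these values. All 43 chains together made up 0.257% and 0.241% of the summed normalized FPK in the low-MYC libraries and 0.314% and 0.294% in the high-MYC libraries. Fibrillar chains held 74.5% and 74.6% of the collagen sum in low-MYC and 77.2% and 76.9% in high-MYC cells. Basement membrane chains held 10.5% and 10.2% in low-MYC and 7.25% and 7.17% in high-MYC cells. The other types held 15% and 15.2% against 15.5% and 16%. In each of these shares the 2 groups did not overlap. With 2 libraries per group an exact permutation test cannot go below p = 0.33, so no p is given for shares or ratios. Col1a1 alone held 36.8% and 37.2% of the collagen sum in low-MYC and 40.4% and 40.1% in high-MYC cells.

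The ratio of partner chains does not depend on the spike-in or on any other scaling of a library. Col1a1 to Col1a2 was 1.60 and 1.63 in low-MYC and 1.79 and 1.78 in high-MYC cells. Col3a1 to Col1a1 was 0.0886 and 0.0828 in low-MYC and 0.112 and 0.110 in high-MYC cells. Both ratios were higher in both high-MYC libraries. Col5a1 to Col5a2 went from 0.423 and 0.421 to 0.465 and 0.466. For the type IV pair, Col4a1 to Col4a2 was 2.06 and 2.05 in low-MYC and 2.02 and 2.0 in high-MYC cells, a ratio of group means of 0.977. In type VI, Col6a1 to Col6a2 was 2.76 and 2.81 against 2.80 and 2.86, and this was the ratio within a type in which the groups overlapped. Col6a3 to Col6a2 was 0.515 and 0.560 in low-MYC and 0.441 and 0.480 in high-MYC cells. Col8a1 to Col8a2 was 34.6 and 33.9 against 24.8 and 26.2, the largest shift among the 7 ratios, with group means 0.745 times as high in high-MYC cells.

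Ratios across types, chosen after the values were seen and given as a description, put the type IV chain against the fibrils. Col1a1 to Col4a1 was 5.45 and 5.65 in low-MYC and 8.78 and 8.84 in high-MYC cells. Col3a1 to Col4a1 was 0.483 and 0.468 against 0.984 and 0.969, so Col3a1 mRNA was about level with Col4a1 in high-MYC cells. Col10a1 to Col2a1, both known from cartilage, was 0.130 and 0.131 against 0.304 and 0.326.

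**Figure D4:**
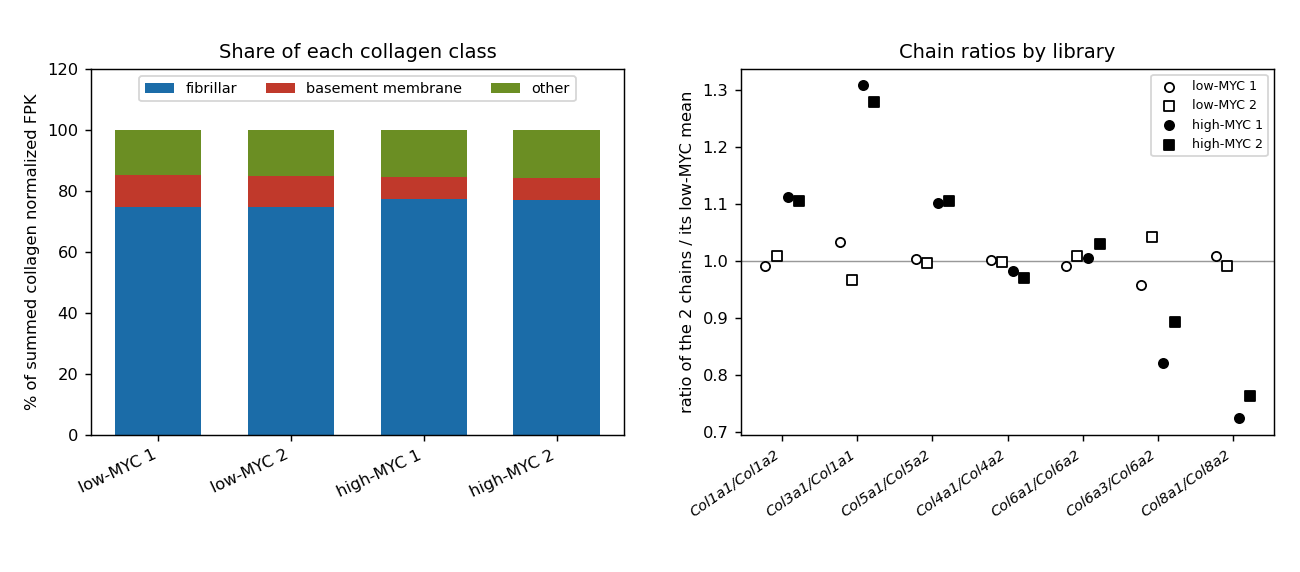
Left, share of fibrillar, basement membrane and other chains in the summed collagen normalized FPK of each library (y axis, %). Right, 7 chain ratios in each library divided by their low-MYC mean (y axis), open symbols for low-MYC and filled for high-MYC. The basement membrane share is 10.2% to 10.5% in low-MYC and 7.17% to 7.25% in high-MYC libraries, and the Col6a1 to Col6a2 ratio is the one in which the groups overlap.

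The 22 chains that were not tested had means of 0.000146 to 0.0279 normalized FPK, and none was listed at 0 in a library. They include 4 basement membrane chains (Col15a1, Col4a3, Col4a4 and Col4a6), 3 fibrillar chains (Col11a2, Col24a1 and Col27a1) and 15 of the other types, among them the chains of type IX, the membrane-spanning types XVII, XXIII and XXV, and Col6a4, Col6a5 and Col6a6. Both high-MYC libraries were above both low-MYC libraries in 19 of the 22, against 82.7% of all genes that were not tested. The exceptions were Col4a3, Col4a4 and Col22a1. For Col4a3 and Col4a4, which make the type IV molecule of the kidney filter with Col4a5, the high-MYC mean was 0.816 and 0.699 times the low-MYC mean. At these levels a value may rest on few reads. By the estimate above, a single read was worth 2.24 to 2.54 times as much in high-MYC libraries as in low-MYC replicate 1. Among the tested chains the groups did not overlap in 21 of 21, against 99.0% of all tested genes.

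Collagen chains are modified, folded, exported, trimmed and cross-linked by other proteins, not all of them specific to collagen, and the mRNAs of these steps were read from 6 lists. All 48 tested members rose per cell at an adjusted p under 0.01 in limma, as did 97.1% of all tested genes, with a median log2 fold change of 1.13. Relative to the median gene 0 of the 48 passed that threshold in limma, against 1.76% of all genes higher and 0.531% lower. At an adjusted p under 0.05, 11 were higher (7.82% of all genes) and 3 lower (5.07%), and at an unadjusted p under 0.05, 19 were higher (17.3%) and 4 lower (15.8%). Their median relative log2 fold change was 0.06, against 0.20 for the collagen chains.

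The modification and folding list had 17 tested members of 19 and a median relative log2 fold change of 0.07. Serpinh1, the collagen chaperone HSP47, was at 71.0 and 70.1 in low-MYC and 155 and 153 in high-MYC cells, a relative log2 fold change of -0.05 ± 0.050. Sparc, a collagen-binding matrix protein, was at 38.7 and 39.6 against 90.9 and 96.2 (0.08 ± 0.026). The largest relative changes were those of the prolyl hydroxylase family member P3h3, from 1.52 and 1.44 to 4.22 and 4.12 (0.30 ± 0.061), and of the isomerase Fkbp14, from 0.767 and 0.806 to 2.07 and 2.20 (0.24 ± 0.029). None of these 4 passed the threshold of 0.01, and Fkbp14 passed that of 0.05.

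Secretion of the long procollagen molecules uses large COPII carriers, and 9 of 9 members of this list were tested. The coat gene Sec31a was at 1.92 and 1.95 in low-MYC and at 5.01 and 5.12 in high-MYC cells. Sec23a was at 1.14 and 1.19 against 3.10 and 3.36, and Sec24d at 0.432 and 0.440 against 1.20 and 1.21. Their relative log2 fold changes of 0.20, 0.28 and 0.25 passed the threshold of 0.05 but not that of 0.01, with adjusted p-values of 0.0357, 0.0143 and 0.0324 (limma). Mia3, which encodes the cargo receptor TANGO1, was at 1.55 and 1.57 against 3.34 and 3.63, a relative log2 fold change of -0.02.

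For propeptide removal 6 of 9 members were tested. Pcolce, the enhancer of the C-propeptide protease, was at 8.24 and 7.82 in low-MYC and 24.2 and 23.5 in high-MYC cells, with a relative log2 fold change of 0.39 ± 0.064 (adjusted p = 0.0384, limma). Pcolce2 was at 0.209 and 0.201 against 0.547 and 0.585 (0.22). Furin, a proprotein convertase, was at 4.46 and 4.37 against 9.59 and 9.41 (-0.07).

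The 5 lysyl oxidases, which cross-link collagen and elastin, were all tested and had a median relative log2 fold change of 0.24. Lox, the most abundant, was at 70.8 and 75.5 in low-MYC and 170 and 186 in high-MYC cells (0.10 ± 0.037 relative to the median gene). Loxl3 was at 10.8 and 10.4 against 28.4 and 28.2 (0.24). Loxl1 and Loxl2 went to opposite sides of the median gene, Loxl1 from 2.28 and 2.28 to 6.86 and 6.89 (0.40 ± 0.039, adjusted p = 0.0136, limma) and Loxl2 from 1.84 and 1.87 to 3.20 and 3.28 (-0.36 ± 0.031, adjusted p = 0.0109, limma).

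Receptors and degrading enzymes completed the lists, with 6 of 10 and 5 of 8 measured members tested. Itgb1, the shared beta subunit of the collagen-binding integrins, was at 31.6 and 33.4 in low-MYC and 65.1 and 72.4 in high-MYC cells (-0.10 relative to the median gene). The receptor kinase gene Ddr1 was at 2.12 and 2.04 against 4.62 and 4.50 (-0.05). Mrc2, an endocytic collagen receptor, was at 1.5 and 1.48 against 4.37 and 4.30 (0.35, adjusted p = 0.0289, limma). Among the proteases, Mmp14 was at 16.8 and 16.9 against 34.7 and 35.9 (-0.12) and Mmp2 at 2.48 and 2.53 against 5.50 and 5.69 (-0.02). Mmp13, a collagenase, was at 0.905 and 0.807 in low-MYC and 3.45 and 3.83 in high-MYC cells. Its relative log2 fold change was the largest among the tested members of the 6 lists, 0.86 ± 0.072 (adjusted p = 0.0103, limma).

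Markers of other cell types were read beside these values. Defining fibroblast genes were present: 10 of 12 were tested, all 10 rose per cell (97.1% of all genes did), and their median relative log2 fold change was 0.28, led by the matrix proteoglycan genes Lum (1.33) and Dcn (0.89). Of 5 myofibroblast genes 4 were lower relative to the median gene at an adjusted p under 0.05 in limma (5.07% of all genes were), with a median of -0.24. Macrophage genes moved with the groups: the summed normalized FPK of 14 markers was 0.625 and 0.871 in low-MYC and 27.5 and 29.0 in high-MYC cells. Lyz2 went from 0.0305 and 0.142 to 18 and 18.9. Of the 8 tested markers only Cd68 had a low-MYC mean of at least 0.1. The others passed the minimum mean through the high-MYC libraries, so a count of rises among them carries no weight and is not given. Cd68 went from 0.549 and 0.661 to 4.27 and 4.72, a relative log2 fold change of 1.62 (adjusted p = 0.00394, limma). Ptprc, the pan-leukocyte gene, was at 0.000308 and 0.000464 against 0.0157 and 0.0161. The chondrocyte sum was 1.05 and 0.962 against 2.53 and 2.63, nearly all of it Sox9. The summed level of 3 osteoblast markers was 0.0766 to 0.226, that of 5 endothelial markers 0.173 to 0.328, that of 4 epithelial markers 0.0770 to 0.376 and that of 5 Schwann cell markers 0.0628 to 0.110. Of 5 skeletal muscle markers 2, Des and Acta1, are in the table, with a sum of 9.71 and 9.83 in low-MYC and 14.4 and 14.5 in high-MYC cells. Acta1, the skeletal muscle actin gene, made up most of it, at 7.83 and 8.15 against 10.8 and 10.9, and fell relative to the median gene by 0.73 on the log2 scale (adjusted p = 0.00401, limma). The part of these cell types in the collagen values was not tested.

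Several chains lie next to a chain of the same or another type. Col4a1 and Col4a2 are transcribed away from each other and their annotated ends overlap by 22 bp, and their levels differed by a factor near 2 in all libraries. Col4a4 and Col4a3 are also head to head, 71 bp apart, and both were below 0.01. Col4a6 and Col4a5, head to head with 1308 bp between them, differed in level, at means of 0.00576 and 0.585. Col3a1 and Col5a2 lie tail to tail 24614 bp apart and had means of 9.05 and 9.26.

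Accessible chromatin at the gene starts was read from 4881417 deposited TACh-seq reads. These stand in clusters: a gene of a chain held either no read or 75 (Col17a1) and more. They may be limited to enriched islands, so the absence of a read here means the absence of a deposited island. Reads within 500 bp of the annotated gene start were found for 19 of the 43 chains, against 67.7% of all protein-coding genes in the table. Among the 21 tested chains it was 16 (84.3% of coding genes with a mean of at least 0.1), and among the 22 others it was 3 (32.7%), Col23a1, Col24a1 and Col27a1. Which of the 4 samples the reads come from is not known, so the counts carry no replicate error. Within 500 bp of the start there were 314 reads at Col5a1, 192 at Col1a1, 179 at Col12a1, 150 at Col16a1, 149 at Col11a1, 122 at Col4a1 and 126 at Col4a2. Col1a2, second in mRNA level, had 56 reads and Col2a1 had 23. Over the 43 chains Spearman's rho between mean normalized FPK and reads at the start was 0.686, and over the 21 tested chains it was 0.375. These are descriptions across genes, which share the same table of reads.

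The tested chains without a read within 500 bp of the start were Col10a1, Col4a5, Col18a1, Col8a2 and Col5a3. Col10a1, the chain with the largest change, had no deposited read in the whole gene, and the nearest lay 25868 bp from its start. Col4a5 also had none in the gene, with the nearest 32984 bp away. Col18a1 had 198 reads inside the gene, the nearest 34382 bp from the start, and Col5a3 had 304, the nearest at 1720 bp. Col8a2 had 52 reads within 500 bp of another annotated coding start. Counting any annotated coding start, an alternative chosen after the values were seen, gave 20 of 43 chains, against 71.0% of coding genes.

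Reads no more than 200 bp apart were joined into islands, and 34 of the 43 genes held at least 1 island. Over Col1a1 a single island of 1548 reads (chr11:94931765-94952408) covered the start and most of the gene. Col4a1 and Col4a2 shared an island of 255 reads over their common start (chr8:11309429-11314862). Col8a1 held 15 islands, Col12a1 13, Col4a2 11 and Col5a1 10.

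**Figure D5:**
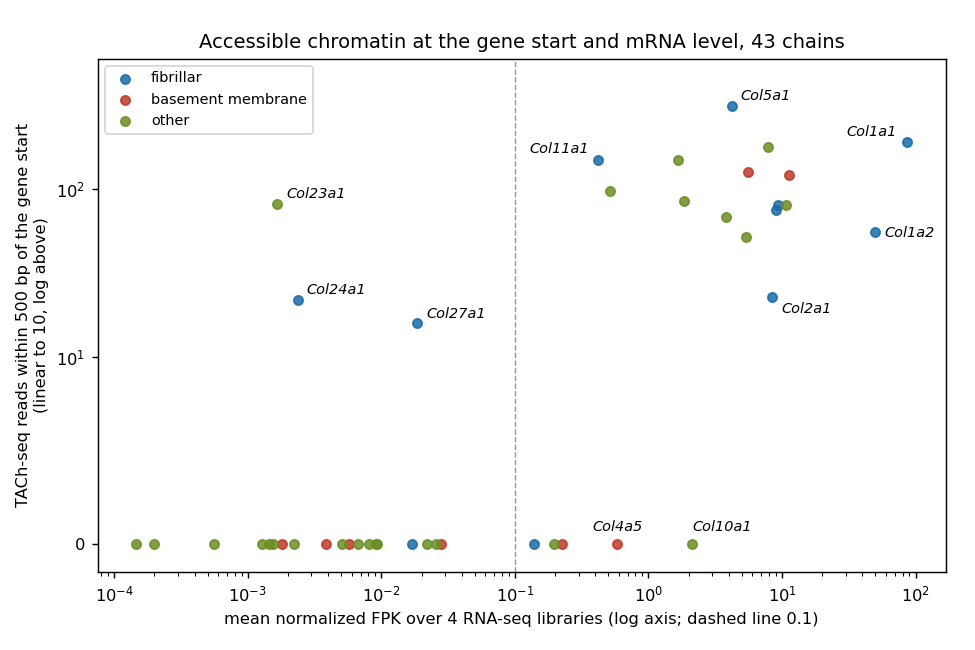
TACh-seq reads within 500 bp of the gene start (y axis, linear to 10 and logarithmic above) against mean normalized FPK (x axis, log scale) for the 43 chains, coloured by class. Of the chains right of the dashed line at 0.1, 16 have reads at the start and 5, among them Col10a1 and Col4a5, have none.

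RefSeq promoter windows (GRCm38.p6, 250 bases before to 50 after the start) were matched for 34 of the 43 genes. No window was matched for Col1a1, Col2a1, Col4a3, Col5a2, Col9a3, Col12a1, Col14a1, Col22a1 and Col26a1. Stretches of 150 bases ending at the base before the start are shown, those of the chains with the largest relative changes, Col10a1 and Col3a1, and of Col5a1 and Col8a1, which differ in reads at the start. They are written 5′ to 3′ on the strand of the gene with matches to TATAAA or GGGCGG, on either strand, in capitals.
Col10a1 (chr10:34389831-34389980, plus strand): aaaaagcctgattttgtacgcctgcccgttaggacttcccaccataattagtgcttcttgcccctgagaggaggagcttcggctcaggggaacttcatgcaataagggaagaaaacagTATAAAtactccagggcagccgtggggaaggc
Col3a1 (chr1:45311388-45311537, plus strand): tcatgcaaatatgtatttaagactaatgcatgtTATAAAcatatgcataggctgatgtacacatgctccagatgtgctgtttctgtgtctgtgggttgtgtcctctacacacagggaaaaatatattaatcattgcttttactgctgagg
Col5a1 (chr2:27886275-27886424, plus strand): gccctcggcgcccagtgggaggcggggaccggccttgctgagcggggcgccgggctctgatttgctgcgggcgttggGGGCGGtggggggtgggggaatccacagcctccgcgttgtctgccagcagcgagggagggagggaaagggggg
Col8a1 (chr16:57754738-57754887, minus strand): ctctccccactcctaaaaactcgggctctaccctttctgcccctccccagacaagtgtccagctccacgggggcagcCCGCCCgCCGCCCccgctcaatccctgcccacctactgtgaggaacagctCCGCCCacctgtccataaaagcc
The TATAAA match of Col10a1 begins 32 bases before the start and that of Col3a1 117 bases before it. In the whole 300-base windows TATAAA, the TATA box letters, was found in 4 of the 34 collagen genes (13.6% of all 32851 windows). GGGCGG, the core of a GC box, was found in 22 of 34 (35.7% of all windows), CCAAT in 13 (37.4%) and the E-box CACGTG in 0 (7.15%). A match of these letters is not evidence of binding. GC content was 50.7% in the stretch of Col10a1, 37.3% in that of Col3a1, 74.7% in that of Col5a1 and 64.7% in that of Col8a1.

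The FUBP1 ChIP-seq list holds 166 peaks, all on chromosome 15, where 3 of the chains lie. The paper reports more peaks than this list holds, so the chains on other chromosomes are not covered by it. No peak overlapped Col14a1, Col22a1 or Col2a1, and the nearest peaks lay 590.8, 255.8 and 554.5 kb away. Of all 599 protein-coding genes of the table on that chromosome, 65 overlapped a peak (10.9%), as did 13.5% of those with a mean of at least 0.1. With 3 genes and 1 sample no comparison can be made.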

How the data were processed

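Spike-in-normalized FPK, a signal that the authors deposited, were made by trimming, TopHat alignment to the mm10 transcriptome, Partek E/M quantification, division by transcript length and by the geometric mean of 10 ERCC transcripts. This quantification splits reads shared by similar genes. The deposited TACh-seq table gives positions and a mapping quality score per read, aligned by the authors with Bowtie2. Whether reads outside enriched islands were left out is not given in the sources used here. FUBP1 peaks are positions only, called with SICER.

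Members and lists were chosen with earlier results of these data known. Genes with a mean of at least 0.1 (11870) were compared as log2(FPK + 0.1) with limma 3.58.1 (trend) in R 4.3.3, per cell and after rescaling libraries to the same median. Calls needed an adjusted p under 0.01; 0.05 was a second threshold. The per-cell fit was tested on simulated data without a general shift between the groups. The fit after rescaling to the same median was not tested in this way. Library values are given for the 15 most abundant chains, the 5 highest and 5 lowest relative changes, chains in ratios, and, per pathway list, the 2 most abundant genes and the 2 with the largest relative changes. Other genes were named after their values were seen. Alternatives covered pseudocount, minimum mean, trend, replicate block, scaling, thresholds and libraries. Deposited gene ends were moved back by 1 base to match GENCODE M21. Col13a1 was not analysed here. Depth per library is not known in reads.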

Additional observations from a re-analysis of the deposited data

How the results depend on the processing

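The per-cell calls of all 21 chains held at pseudocounts of 0.01 and 1, without a minimum mean, without the limma trend and under the replicate block. With any single library left out, their per-cell log2 fold changes stayed positive, the lowest being 0.74 for Col5a3 without low-MYC replicate 2. Calls are not given for those fits, which leave 1 library in a group. At a pseudocount of 1, 10 chains were at least 2-fold higher in place of 15 (12.2% of all genes in place of 55.1%). At a pseudocount of 0.01 it was 16 chains (10076 of 11870 genes). At a minimum mean of 1 the 15 chains still tested were called, 12 of them at least 2-fold higher (4779 of 5608 genes). Rescaled to the same total or the same median, 1 chain was higher (209 of 11870 genes in both) and 1 at least 2-fold higher (68 and 65 genes). Then 5 chains reversed: Col11a1 -0.11 (total) and -0.13 (median), Col2a1 -0.16 and -0.18, Col4a1 -0.25 and -0.27, Col4a2 -0.22 and -0.23, and Col4a5 -0.16 and -0.17.

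Relative to the median gene 1 chain, Col10a1, was higher. The count was 0 without a minimum mean (59 of 19769 genes were higher). It was 0 under the replicate block (adjusted p = 0.0154, limma), where 0 of 11870 genes were higher or lower. It was 2 after upper-quartile rescaling (Col10a1 and Col3a1, against 262 of 11870 genes) and 10 at an adjusted p under 0.05 (7.82% of all genes). At a minimum mean of 1, where fewer genes were tested, 6 were higher (5.67% of the genes in that fit) and 1, Col4a1, was lower (3.80%). Over the alternatives that kept all 4 libraries, adjusted p-values of Col10a1 ran from 9.52e-06 to 0.0154 (limma). Its relative log2 fold change was 0.67 at a pseudocount of 1. Those of 2 chains of low level moved with the pseudocount too, from 0.56 at 0.01 to 0.09 at 1 for Col18a1 and from 0.59 to 0.09 for Col8a2. The replicates share only a number: deviations of equal numbers correlated at a Pearson r of 0.081 and a Spearman rho of 0.301 over genes. Under the replicate block no call on this scale could be kept at an adjusted p under 0.01, since 0 of 11870 genes passed. At an adjusted p under 0.05 the block gave 13 higher (7.9% of all genes) and 3 lower (4.86%). Without the block it was 10 (7.82%) and 0 (5.07%). The additional chains above 0 were Col1a2 (0.0329), Col7a1 (0.0425) and Col16a1 (0.0446, limma). Below 0 they were Col2a1 (0.0419), Col4a1 (0.0289) and Col4a2 (0.0310, limma).

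With members of a mean of at least 1, class medians were 1.42 (fibrillar) and 1.35 (other) per cell and 0.26 (fibrillar), -0.25 (basement membrane) and 0.20 (other) relative to the median gene. With types XV and XVIII moved to the other types, their medians were 1.29 and 0.30. As a share of the protein-coding sum, collagen made up 0.297% (low-MYC) and 0.364% (high-MYC), and without Col1a1 it made up 0.157% and 0.181% of all. Of the pathway genes 8 of 36 tested were higher relative to the median gene at a minimum mean of 1 (5.67% of all genes in that fit). Start windows of 200 or 1000 bp gave 19 chains, and requiring a peak to lie at least 50% inside a gene gave 0.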
